A study of Arabidopsis thaliana with 12 samples.

Results

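By protein family, CRR21 (AT5G55740), AT1G31790, AT3G18870 and AT5G15390 are grouped here as organelle RNA factors. All are nuclear genes of Arabidopsis thaliana. They were taken by name as the probes that list one of these loci and no other gene, which gave 4 of the 691 genes that have a probe of their own, with 1 probe each among the 3439 on the array. They were picked because earlier results of these same arrays had shown them to be lower after recovery, so their difference between the groups is described here without a test. Total RNA of wild-type plants of ecotype Columbia 0 was measured in 12 samples. The 6 recovered samples came from plants that were held for 24 h at 4 °C in medium light, which the labels call photoinhibitory, and then returned to 20 °C in medium light for another 24 h. The 6 control samples came from plants grown in medium light at 20 °C. The series has no sample from the end of the cold itself, and the tissue, the age of the plants and whether each sample is a separate set of plants are not given in the sources used here.

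Chloroplasts and mitochondria keep small genomes whose transcripts must be cut, spliced, edited and stabilised before they can be translated. Nearly all of this work is done by proteins that are encoded in the nucleus and imported. Pentatricopeptide repeat (PPR) proteins are chains of helical repeats that each contact one base, so that a protein can recognise a short stretch of a particular organelle transcript. CRR21 (chlororespiratory reduction 21) is one of them and is needed for an RNA editing event in the plastid ndhD transcript, which encodes a subunit of the thylakoid NDH complex of cyclic electron flow. AT1G31790 is annotated as a pentatricopeptide or tetratricopeptide repeat-like protein, and its target is not known from the sources used here. AT3G18870 belongs to the mTERF family, helical repeat proteins named for the mitochondrial transcription termination factor of animals and used in plants for organelle transcription, splicing and transcript maturation. AT5G15390 belongs to the SpoU family of RNA methyltransferases, which in bacteria place methyl groups on the ribose of transfer or ribosomal RNA. The gene table used here gives a symbol for CRR21 and lists the other 3 by locus alone, and nothing on the arrays bears on where these proteins act.

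Intensities run from 0 to 100 in arbitrary units. The arrays of the groups differed as a whole, which touches every value below. The median probe of an array lay at 0.0971 to 0.128 in recovered samples and at 0.536 to 0.569 in control samples. The brightest probes went the other way, with the 99th percentile at 12.2 to 13.4 in recovered and 8.42 to 8.95 in control samples. A single shift of each array, as in median centring, cannot align both. Probes listed at exactly 0 numbered 388 to 564 per recovered array and 154 to 162 per control array. The median log2 difference over the 2409 probes without a 0 on any array was -1.58 as deposited, so that lower deposited intensity after recovery was the usual result. For that reason each gene is also given by its percentile among all 3439 probes of its own array, which no scaling of a whole array can change. Probes at 0 fill the lowest percentiles, however, and there were more of them on recovered arrays. The lowest percentile open to a probe above 0 was therefore higher there. Within the control group, samples 1 and 2, 3 and 4, and 5 and 6 resembled each other (correlations of deviations from the group mean of 0.813 to 0.927 across probes), and such consecutive samples may not be independent, while in the recovered group these correlations were -0.115 to 0.00921. Fewer cells of a type and less RNA per cell cannot be told apart in RNA of whole samples. Whether the groups were hybridised separately is not given, and group and batch would then be impossible to tell apart. None of the 21 marker genes listed for leaf, root, flower, seed and senescent tissue had a probe that names it alone.

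CRR21, the editing factor, had the mildest difference of the 4. Its deposited intensities in recovered plants were 0.137 and 0.202 in samples 1 and 2, 0.199 and 0.132 in samples 3 and 4, and 0.153 and 0.0987 in samples 5 and 6. In control plants they were 0.838 and 0.969, 1.10 and 1.23, and 0.834 and 0.903 for the same sample numbers. All recovered samples lay below all control samples, and the lowest control sample was 4.12 times the highest recovered one. The mean was 0.154 ± 0.0406 in recovered and 0.980 ± 0.159 in control samples (SD, n = 6 each), and the log2 difference was -2.70 (SE 0.185). Part of this was shared with the array as a whole. The percentile rank of CRR21 was 48.9 to 68.2 in recovered samples, with a mean of 59.0 ± 7.14, and 68.0 to 82.1 in control samples, with a mean of 73.9 ± 5.66. In rank the groups therefore met, since recovered sample 3 at 68.2 stood just above control sample 5 at 68.0. After quantile normalization, which gives all arrays one distribution, the log2 difference of CRR21 was -0.95 (SE 0.192), and 519 of the 2409 probes had a larger decrease.

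AT1G31790, the repeat protein without a symbol, was low in all recovered samples and uneven among them. Its recovered intensities were 0.135 and 0.141 in samples 1 and 2, 0.0298 and 0.0574 in samples 3 and 4, and 0.0186 and 0.0189 in samples 5 and 6. In control plants they were 1.40 and 1.43, 1.71 and 1.68, and 1.52 and 1.57. No recovered sample came near a control sample, and the lowest control sample was 9.93 times the highest recovered one. The group means were 0.0668 ± 0.0570 in recovered and 1.55 ± 0.126 in control samples (SD, n = 6 each), with a log2 difference of -5.02 (SE 0.546). The percentile rank was 34.4 ± 16.1 in recovered and 87.4 ± 1.43 in control samples. Recovered samples 1 and 2 stood at percentiles 53.0 and 53.5, the middle of their arrays, whereas recovered samples 5 and 6 both stood at 18.1.

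The spread within the recovered group was large beside other probes. It did not follow consecutive samples throughout, as recovered sample 4 had 1.92 times the AT1G31790 signal of recovered sample 3. Recovered samples 5 and 6 had 7.38 times less AT1G31790 signal than recovered samples 1 and 2, a log2 difference of -2.88, where the median of 2409 probes was -0.19 and 0.664% of them had a larger decrease. CRR21 differed by -0.44, AT3G18870 by 0.23 and AT5G15390 by -0.55 between the same samples. The coefficient of variation of AT1G31790 was 85.4% in recovered samples, above that of 89.8% of the 482 probes of its intensity quintile, and 8.15% in control samples. What sets recovered samples 1 and 2 apart from samples 5 and 6 for this gene was not tested.

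AT3G18870, the mTERF family gene, was bright and very even in control plants and dim in recovered plants. Recovered intensities were 0.107 and 0.0548 in samples 1 and 2, 0.127 and 0.00840 in samples 3 and 4, and 0.0975 and 0.0828 in samples 5 and 6. Control intensities were 2.96 and 2.98, 3.21 and 2.96, and 3.04 and 2.92. The control coefficient of variation of 3.46% was lower than that of all but 2.70% of the 482 probes of its control intensity quintile. The lowest control sample was 23.0 times the highest recovered sample. Means were 0.0795 ± 0.0424 in recovered and 3.01 ± 0.104 in control samples (SD, n = 6 each), and the log2 difference was -5.63 (SE 0.596). The percentile rank was 40.5 ± 14.5 in recovered and 95.2 ± 0.232 in control samples. By this change of -54.8 percentile points it took place 60 among the decreases of all 3439 probes.

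AT5G15390, the SpoU-type methyltransferase gene, had recovered intensities of 0.139 and 0.0848 in samples 1 and 2, 0.0440 and 0.000444 in samples 3 and 4, and 0.0627 and 0.0874 in samples 5 and 6. Control intensities were 1.67 and 1.45, 1.34 and 1.31, and 1.45 and 1.43. The groups lay apart, with the lowest control sample at 9.37 times the highest recovered one, but recovered sample 4 lay far below its own group. Means were 0.0698 ± 0.0467 in recovered and 1.44 ± 0.129 in control samples (SD, n = 6 each), and the log2 difference was -5.45 with an SE of 1.26, the widest of the 4. The percentile rank was 37.2 ± 12.7 in recovered and 86.0 ± 1.97 in control samples. Recovered sample 4 stood at percentile 16.3, just above the probes listed at 0 on its array.

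**Figure D1:**
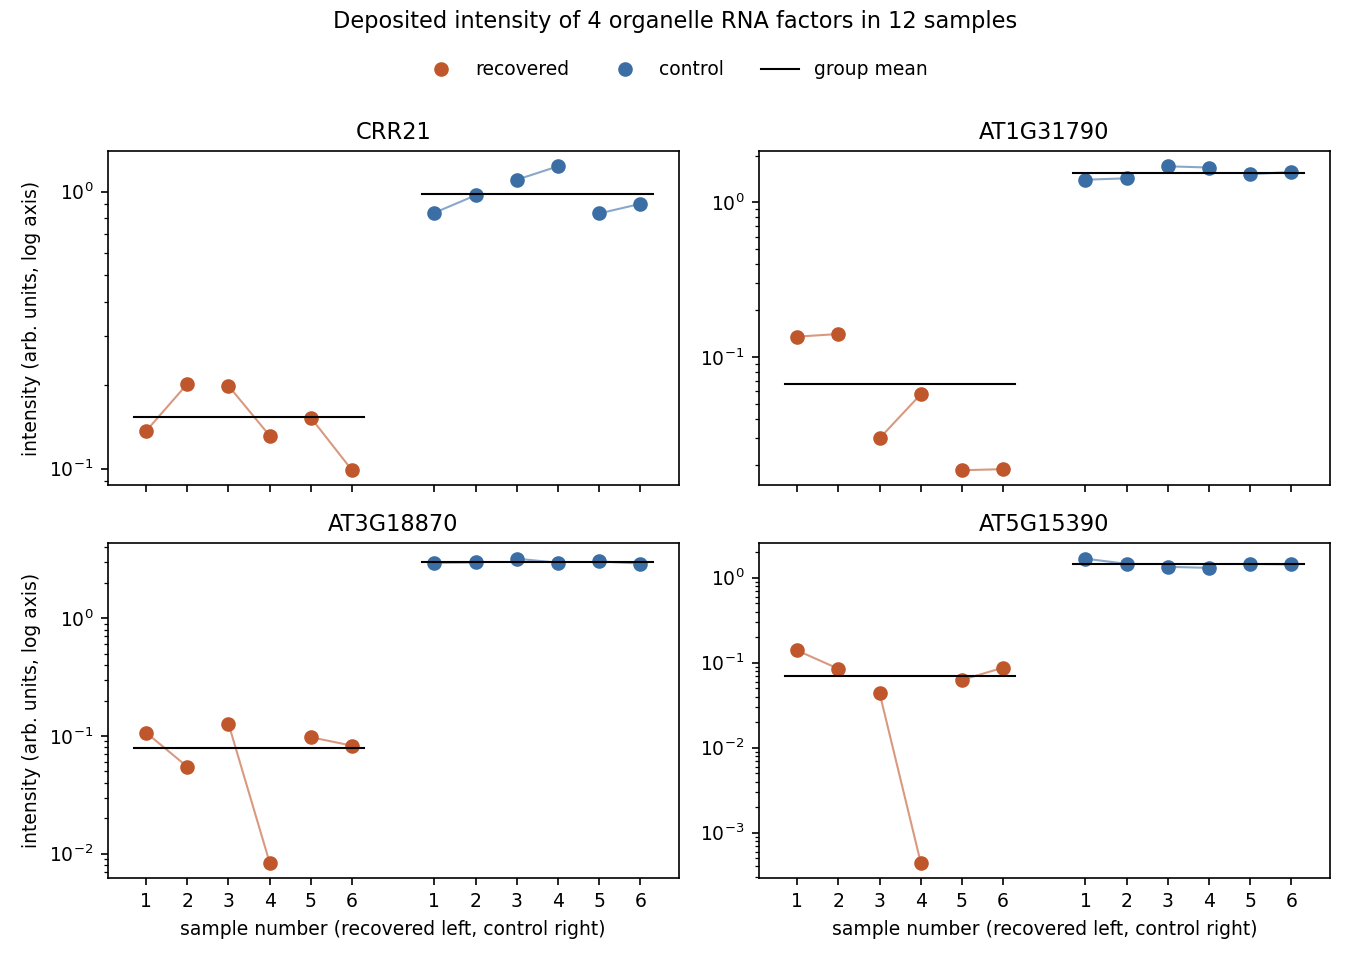
Deposited intensity (arbitrary units, log axis) of each gene in recovered samples 1 to 6 (left) and control samples 1 to 6 (right); thin lines join consecutive samples and black lines are group means. All recovered points lie below all control points in each panel, AT1G31790 is uneven among the recovered samples, and recovered sample 4 is the lowest for AT3G18870 (0.00840) and AT5G15390 (0.000444).

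Recovered sample 4 was the lowest sample for both AT3G18870 and AT5G15390. On that array 556 probes were listed at 0, and AT5G15390 had only 4 probes above 0 beneath it, so its value there stood next to the zeros. AT3G18870 had 96 probes above 0 beneath it on the same array. With the background unknown, the size of such a drop is not measured, and no fold is given for it. Sample 3, which held a like number of zeros (564), had 0.127 for AT3G18870 and 0.0440 for AT5G15390. CRR21 had 0.132 in sample 4 and 0.199 in sample 3, and AT1G31790 had 0.0574 and 0.0298, so neither lay near the zeros in sample 4. Without recovered sample 4 the recovered mean of AT5G15390 was 0.0837 ± 0.0358 (SD, n = 5) and that of AT3G18870 was 0.0937 ± 0.0271 (SD, n = 5).

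The log2 scale gives such near-zero values much weight, and the linear scale gives them little. Leaving out recovered sample 4 moved the log2 difference of AT5G15390 to -4.21, whereas the control mean was 17.3 times the recovered mean without that sample and 20.7 times with it. For AT3G18870 the log2 difference became -5.06, and the ratio of control to recovered means was 32.1 without the sample and 37.8 with it. No other single sample moved either log2 difference by as much. For AT1G31790 the log2 difference ran from -5.34 without recovered sample 2 to -4.75 without recovered sample 5, and for CRR21 from -2.79 without recovered sample 2 to -2.58 without recovered sample 6. Dropping consecutive pairs moved AT1G31790 further, to -5.79 without recovered samples 1 and 2 and to -4.35 without recovered samples 5 and 6. All 4 genes kept a difference below 0 with any single sample or any such pair left out.

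**Figure D2:**
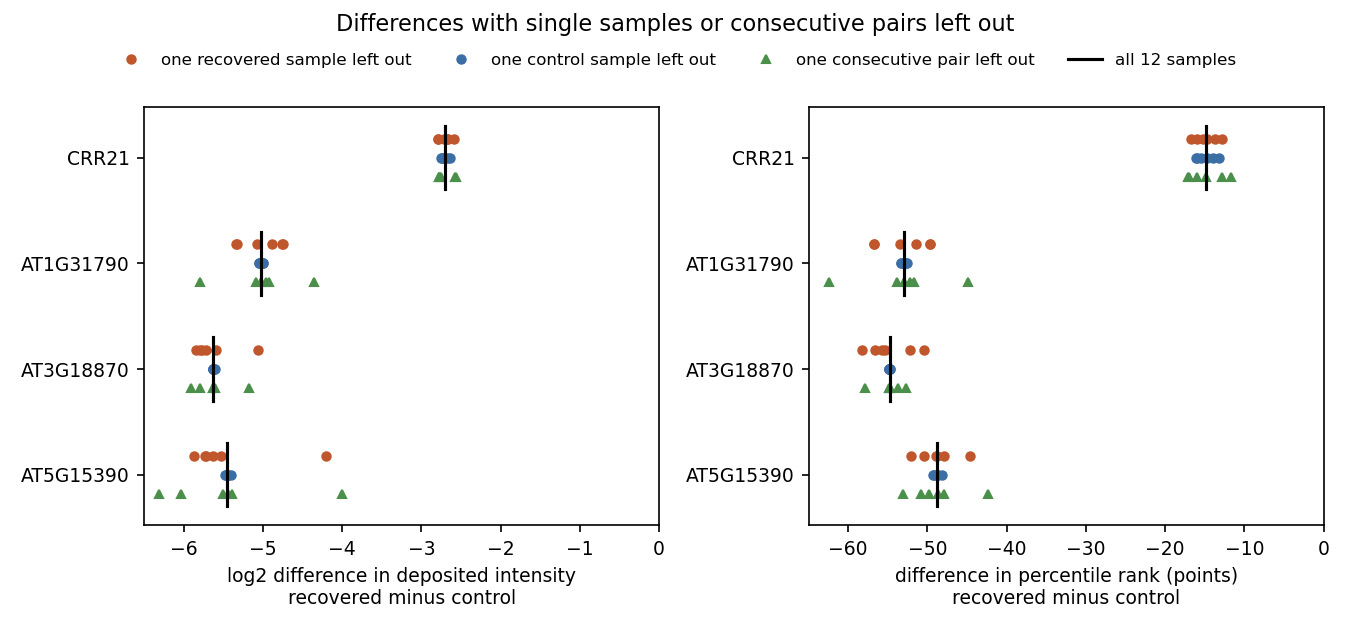
Difference of recovered minus control in deposited intensity (log2, left) and in percentile rank (points, right) for each gene; black bars use all 12 samples, dots leave out a single sample and triangles a consecutive pair. The AT5G15390 dot near -4.21 is the value without recovered sample 4, and all CRR21 points stay between -2.79 and -2.56 on the log2 scale.

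Percentile ranks kept their direction without any single sample. The rank difference of AT5G15390 was -48.8 points and ran from -52.1 to -44.6 without a single sample, and that of AT3G18870 was -54.8 points and ran from -58.2 to -50.5. For AT1G31790 it was -53.0 points, from -56.8 to -49.7, and for CRR21 -14.9 points, from -16.7 to -12.9. Over all 3439 probes the median rank difference was 2.11 points, with the 5th percentile at -42.1 and the 95th at 36.9. AT1G31790, AT3G18870 and AT5G15390 thus lay below the 5th percentile of all probes, and CRR21 lay inside this range, with 806 probes dropping further. Ranked among the 2409 probes without a 0 alone, the difference of CRR21 was larger, -23.7 points, with 413 probes dropping further, and it still lay inside the range of those probes from the 5th percentile at -45.8 to the 95th at 38.3.

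**Figure D3:**
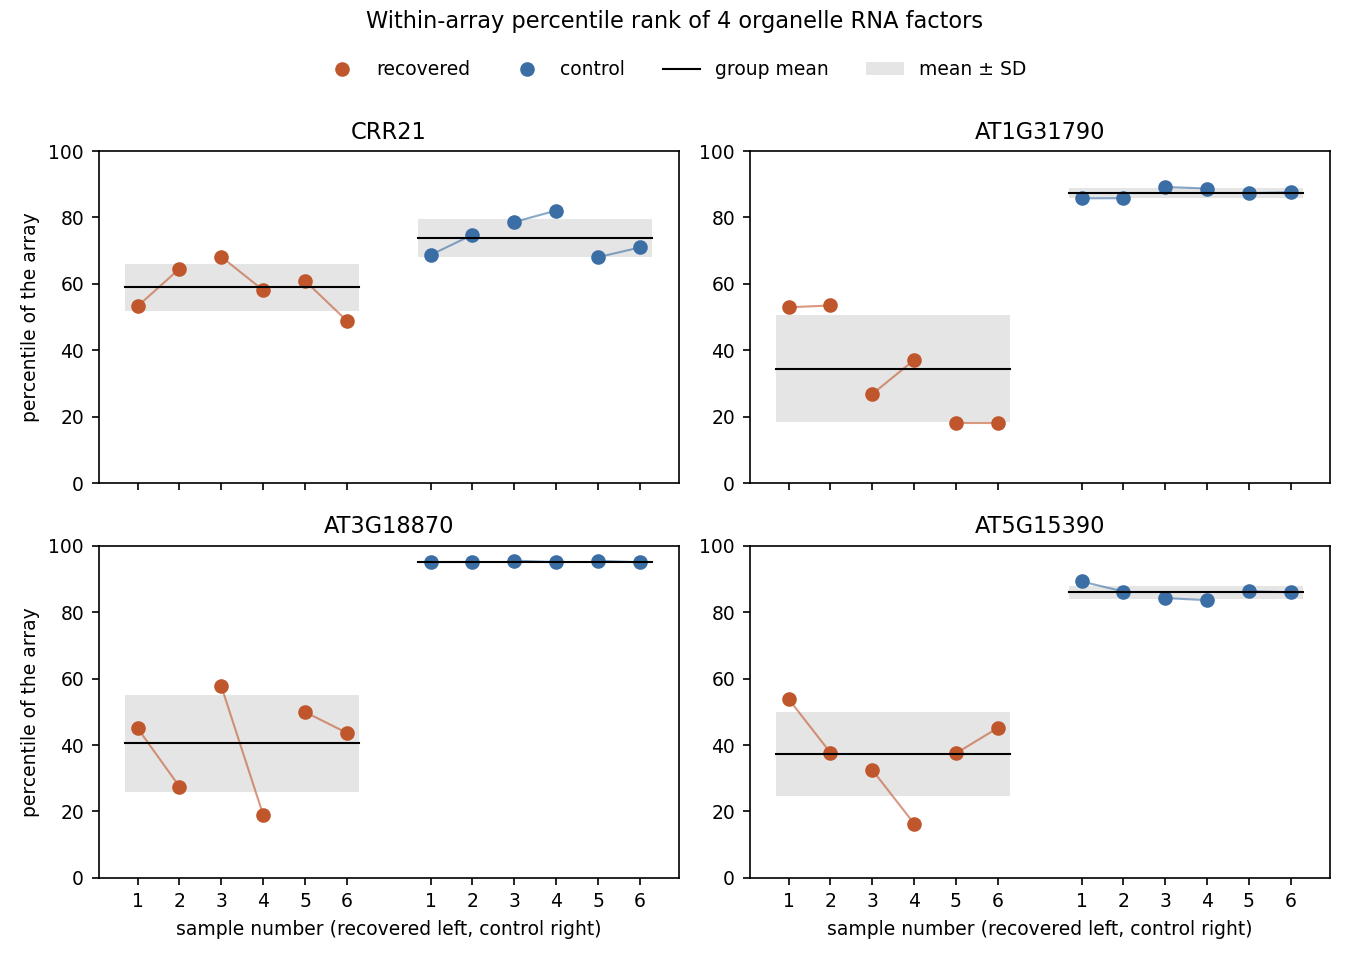
Percentile of each gene among all 3439 probes of its array in recovered samples 1 to 6 (left) and control samples 1 to 6 (right); lines are group means and grey bands 1 SD. The control ranks of AT3G18870 lie between 95.03 and 95.6, and for CRR21 recovered sample 3 (68.2) reaches the lowest control sample (68.0).

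Counted over the 4 genes, every recovered intensity lay below every control intensity for 4, as for 69.1% of all probes. Every recovered percentile rank lay below every control rank for 3, as for 20.2% of all probes. Since the genes were chosen on this contrast, these counts add no evidence for it. The size depended on the scaling. AT3G18870 had a log2 difference of -4.45 after quantile normalization, -3.70 after median centring and -3.94 after cyclic loess. AT1G31790 had -3.35, -3.10 and -2.83, AT5G15390 had -3.38, -3.52 and -3.18, and CRR21 had -0.95, -0.77 and -0.86 in the same order. Any background left in or taken out also bears on them: with 0.1 added to every value the deposited differences shrank to -4.15 for AT3G18870, -3.37 for AT1G31790, -3.23 for AT5G15390 and -2.09 for CRR21.

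Other genes of organelle gene expression were then read from lists made by process and not by how they moved on these arrays. Earlier results of these data were nonetheless known when the lists were chosen. Of 162 genes in lists of PPR proteins and editing cofactors, mTERF proteins, other RNA processing proteins, and organelle RNA polymerases with their partners, 10 genes besides the 4 had a probe that names them alone, with 11 probes between them. No gene of the polymerase list was among them. Of the 9 probes that could be tested by limma (lmFit and eBayes, adjusted p under 0.05), 3 were called higher and 4 lower after quantile normalization, with 2 short of the threshold, where 37.5% of all tested probes were higher and 31.1% lower. Adjusted p-values after quantile normalization may be too small, since on simulated data more of its calls were false than the threshold allows. Those simulated data lacked the array-wide difference between the groups, so they cannot show that calls on deposited values are sound. For the same reason they cannot show what share of the quantile-normalized calls is false here. As deposited all 9 were lower, beside 75.5% of all tested probes. With consecutive samples averaged first 2 of the 9 passed, both lower, beside 23.6% of all tested probes called lower and 28.8% called higher. The median log2 difference of the 9 probes was -0.32 after quantile normalization, beside 0.08 for all tested probes, and -1.97 as deposited, beside -1.58.

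Among the PPR proteins, AT3G22150 fell in each of the 4 scalings (none, quantile, median centring and cyclic loess), and the calls of OTP70 and OTP85 changed with the scaling. AT3G22150 had intensities of 0.0944 ± 0.0291 in recovered and 0.703 ± 0.0708 in control samples (SD, n = 6 each), and its quantile-normalized log2 difference was -0.93 (limma, SE 0.192, adjusted p = 0.000938), near that of CRR21. OTP70, a plastid splicing factor, had 0.267 ± 0.0382 and 1.04 ± 0.0779 in recovered and control samples, and a quantile-normalized log2 difference of -0.43 (limma, adjusted p = 0.00313) that was not called with consecutive samples averaged (adjusted p = 0.0697) or after median centring (-0.04, adjusted p = 0.763). OTP85, like CRR21 an editing factor of the ndhD transcript, had 0.111 ± 0.0143 in recovered and 0.340 ± 0.0460 in control samples. Its log2 difference was 0.58 after quantile normalization (limma, adjusted p = 0.00243) and -1.61 as deposited (adjusted p = 1.33e-07), where the median of all tested probes was -1.58. After median centring it was 0.32 and just missed the threshold (adjusted p = 0.0532). Cyclic loess gave 0.66 and a higher call (adjusted p = 0.00108). Of these 4 scalings, only the deposited values gave a negative sign. The mean percentile rank of OTP85 was 50.6 in recovered and 29.7 in control samples. With consecutive samples averaged OTP85 missed the threshold (adjusted p = 0.0507). AT3G22690 was left out of the test because recovered samples 2 and 4 listed it at 0, and its other recovered values were 0.0181 to 0.0804, against 0.221 to 0.337 in control samples. Its mean percentile rank was 22.6 in recovered and 22.5 in control samples.

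Among the other mTERF genes, AT1G61990 fell in each scaling, and the calls of the other 3 that could be tested depended on the scaling or the filter. AT1G61990 had intensities of 0.0912 ± 0.00973 in recovered and 0.880 ± 0.0736 in control samples (SD, n = 6 each), a quantile-normalized log2 difference of -1.35 (limma, SE 0.108, adjusted p = 3.45e-07), and it was also called lower as deposited, median-centred, after cyclic loess and with consecutive samples averaged (adjusted p = 0.00128). Its percentile rank averaged 45.2 in recovered and 70.2 in control samples. AT1G62010, which belongs to the same group of nearby mTERF loci on chromosome 1, was listed at 0 in recovered sample 4 and was not tested. Its other recovered values spread from 0.0229 to 0.169, against 0.827 to 1.03 in control samples. Its mean percentile rank was 34.6 in recovered and 70.8 in control samples, a difference of -36.2 points where that of AT1G61990 was -25.0. With zeros kept at the smallest positive value it was called lower (log2 difference -2.60, limma, adjusted p = 0.0484), a value that depends on the number put in place of the 0. AT1G62150, also in that group, had a quantile-normalized log2 difference of -0.32 and did not pass (limma, adjusted p = 0.132). It was called lower as deposited (-2.11, adjusted p = 2.33e-07), without the dimmer 50% of probes (-0.53, adjusted p = 0.0127) and without recovered sample 4 (adjusted p = 0.0486). Related mTERF genes can share sequence, and whether their probes tell them apart was not tested. AT5G55580 (mTERF9) had intensities of 1.09 ± 0.141 in recovered and 1.35 ± 0.125 in control samples. It was called higher after quantile normalization (log2 difference 0.50, limma, adjusted p = 0.00260), lower as deposited (-0.32, adjusted p = 0.0159), and fell short of the threshold with consecutive samples averaged (adjusted p = 0.0688). Median centring gave 1.61 (adjusted p = 7.96e-08), and cyclic loess gave 0.039 with no call (adjusted p = 0.774). AT4G09620, at 1.03 ± 0.139 in recovered and 1.63 ± 0.272 in control samples, had a quantile-normalized log2 difference of 0.06 (limma, adjusted p = 0.795). It was called lower as deposited (-0.65, adjusted p = 0.000907) and higher after median centring (1.28, adjusted p = 1.24e-05).

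AT2G25870 was the single other gene of the RNA processing list with a probe of its own, and its 2 probes disagreed. Probe 2727 had intensities of 0.317 ± 0.0490 in recovered and 0.638 ± 0.308 in control samples, and probe 2853 had 0.116 ± 0.0345 in recovered and 0.777 ± 0.293 in control samples (SD, n = 6 each). After quantile normalization probe 2727 was called higher (log2 difference 0.88, limma, adjusted p = 0.0457) and probe 2853 lower (-0.77, adjusted p = 0.0407). Neither passed with consecutive samples averaged (adjusted p = 0.167 and 0.155), and probe 2853 did not pass after cyclic loess (-0.52, adjusted p = 0.111). As deposited both were lower, with log2 differences of -0.83 (limma, adjusted p = 0.0370) for probe 2727 and -2.69 (adjusted p = 3.21e-06) for probe 2853. Mean percentile ranks in recovered and control samples were 75.1 and 52.5 for probe 2727 and 51.8 and 61.9 for probe 2853. The probes were low in the same control samples: samples 1 and 2 had 0.245 and 0.276 on probe 2727 and 0.404 and 0.418 on probe 2853, while the other 4 lay between 0.687 and 0.972 and between 0.855 and 1.05.

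**Figure D4:**
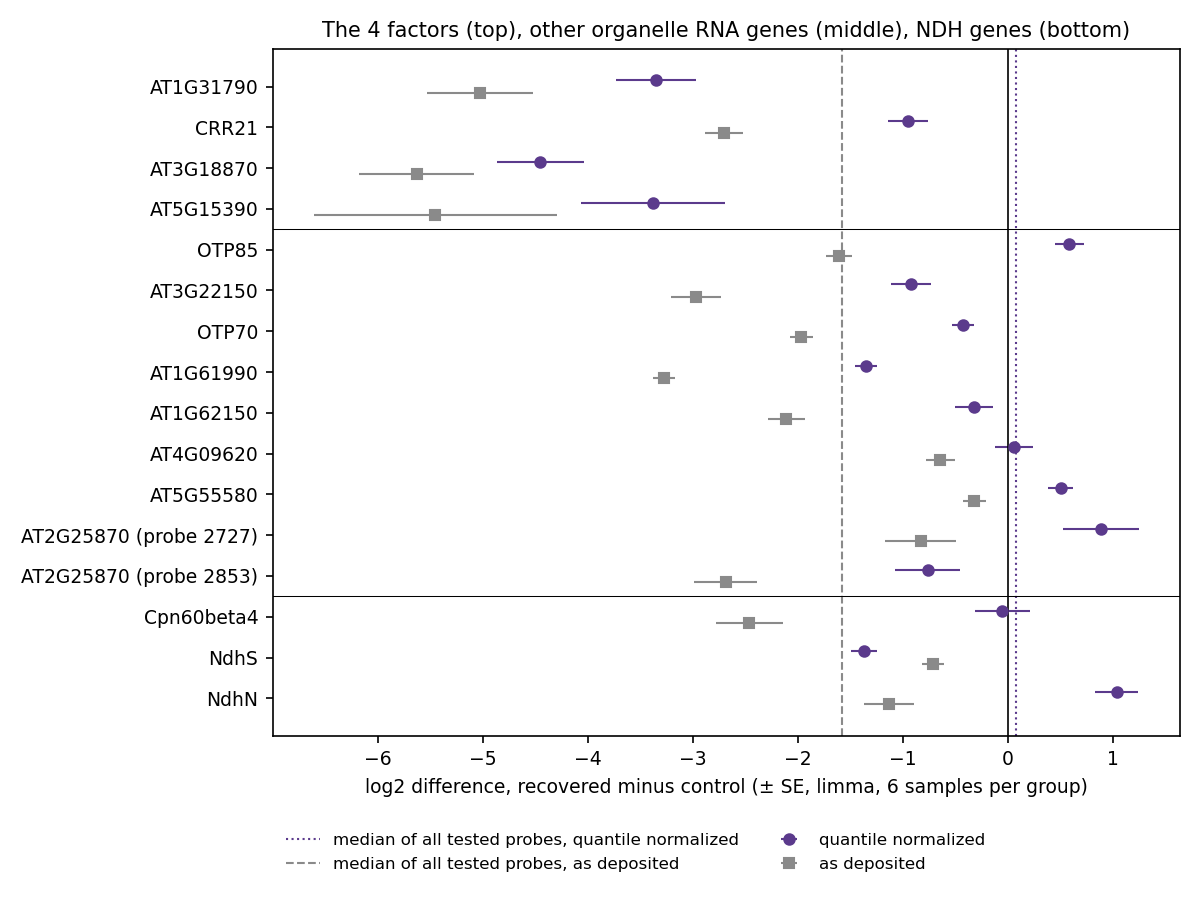
Log2 difference of recovered minus control (± SE, limma, n = 6 each) after quantile normalization (circles) and as deposited (squares) for the 4 genes, 9 other probes of organelle RNA genes and 3 NDH genes; vertical dashed and dotted lines mark the medians of all 2409 tested probes. AT1G31790, AT3G18870 and AT5G15390 lie left of every other gene drawn, a gap that their choice fixed in part, while CRR21 (-0.95) lies beside AT3G22150 (-0.93).

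The NDH complex is where the editing by CRR21 is used, and 3 of 22 listed nuclear genes for its subunits and assembly had a tested probe. After quantile normalization 1 was called higher and 1 lower, beside 37.5% and 31.1% of all tested probes. NdhS, the subunit that binds ferredoxin, had intensities of 6.97 ± 0.315 in recovered and 11.5 ± 1.56 in control samples (SD, n = 6 each). It was lower after quantile normalization (log2 difference -1.37, limma, adjusted p = 9.25e-07) and as deposited (-0.72, adjusted p = 3.51e-05). Cyclic loess also gave a lower call (-1.42, adjusted p = 2.18e-07), and median centring alone gave a higher one (1.21, adjusted p = 1.69e-06). NdhN, another subunit, had 0.157 ± 0.0607 in recovered and 0.325 ± 0.0411 in control samples. It was higher after quantile normalization (log2 difference 1.03, limma, adjusted p = 0.000574) and lower as deposited (-1.14, adjusted p = 0.000674). Median centring (0.79, adjusted p = 0.00393) and cyclic loess (1.13, adjusted p = 0.000319) also gave higher calls. Cpn60beta4, a chaperonin subunit used for folding NdhH, had 0.0565 ± 0.0303 in recovered and 0.280 ± 0.0489 in control samples and did not pass after quantile normalization (log2 difference -0.06, adjusted p = 0.855). All 3 were called lower as deposited, as were 75.5% of all tested probes, and they had no common direction after quantile normalization. Mean percentile ranks in recovered and control samples were 97.8 and 99.3 for NdhS, 59.1 and 28.4 for NdhN, and 32.8 and 23.3 for Cpn60beta4.

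The 4 genes showed no shared direction of variation inside the groups over these 12 samples. For deviations of percentile rank from the group means over the 12 samples, Pearson's r was 0.50 between AT3G18870 and AT5G15390, which share the low recovered sample 4, and between -0.47 and 0.15 for the other 5 pairs of genes. Spearman's rho was 0.23 for AT3G18870 and AT5G15390 and between -0.64 and 0.16 for the other 5. These are descriptions, as samples of a pair may share their source. Over the 12 samples with the group difference left in, AT5G15390 was most like AT3G52960, the plastid peroxiredoxin PRXIIE (r = 0.98), and AT2G36480 (r = 0.98), AT3G18870 was most like AT4G35660 (r = 0.98) and AT4G14380 (r = 0.98), AT1G31790 was most like AT4G31530 (r = 0.98) and AT5G01860 (r = 0.98), and CRR21 was most like AT5G19540 (r = 0.93) and SIS (r = 0.92). AT4G31530 stood near the top of every array, with a mean percentile rank of 99.6 in recovered and 99.8 in control samples, and its deposited intensity was 40.4 ± 2.81 in recovered and 35.7 ± 2.27 in control samples (SD, n = 6 each), so its r rests on a very small change in rank and its intensity ran opposite to that of AT1G31790. For AT1G31790, AT3G18870 and AT5G15390 a high r over the groups was common, since 5.79%, 5.50% and 6.51% of the 691 other single-gene probes had an r above 0.9, against 0.289% for CRR21.

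With the group difference taken out, CRR21 remained most like SIS (r = 0.91) and AT5G19540 (r = 0.82). SIS was dim in recovered samples, at 0.0295 ± 0.0233 with a lowest value of 0, against 0.389 ± 0.0897 in control samples. Its recovered ranks thus lay partly among or near the zeros. AT5G19540 had intensities of 0.117 ± 0.0358 in recovered and 1.08 ± 0.167 in control samples. AT5G15390 was most like AT2G36480 (r = 0.92) and AT1G13970 (r = 0.90), and both of these were listed at 0 in recovered sample 4, where AT5G15390 had its value of 0.000444. AT3G18870 was most like AT4G24090 (r = 0.90) and AT5G19210 (r = 0.89), which also had their lowest recovered values, 0.155 and 0.0736, in recovered sample 4. AT1G31790 was most like AT5G13410 (r = 0.95), which was above 0 in recovered samples 1 and 2 alone, at 0.0224 and 0.0189, and AT5G58330 (r = 0.87), at 1.92 ± 0.413 in recovered and 3.26 ± 0.221 in control samples.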

How the data were processed

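The deposited table holds 1 intensity per probe and array on a linear scale from 0 to 100. The authors' background correction, scaling and floor for these intensities, and the array platform, are not given in the sources used here. Of all values 8.89% were exactly 0. Probes were named from the platform annotation (1 gene for 692, several for 870, none for 1877), and 690 of the 692 matched the RefSeq TAIR10.1 gene table. No sequences, genome positions or gene descriptions were used, so annotation families were not compared.

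Samples were grouped by their labels. A log2 difference is recovered minus control, of means of log2 deposited intensity unless another scaling is named. Percentile ranks were taken among all 3439 probes of an array, ties averaged. The background of calls came from limma 3.58.1 (R 4.3.3) on the 2409 probes without a 0, quantile normalized, without a replicate block, with Benjamini-Hochberg adjustment over all of them and a threshold of 0.05. More recovered than control values were 0, so this filter depended on the group. The fit was tested on simulated data with independent samples, which leaves out the likeness of consecutive control samples: false calls stayed within the threshold without further scaling and exceeded it several-fold after quantile normalization, so adjusted p-values after that scaling may be too small. The simulated data changed 200 of 2409 probes and had no array-wide difference between the groups, so their share of false calls need not carry over. No source says that the samples of a group are separate plants, so p-values reflect only sample-to-sample spread, possibly technical. The number of arrays limits the precision.

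Named were the 4 genes, all list genes with a probe of their own, and the 2 single-gene probes most like each of the 4 by Pearson correlation of percentile rank, with and without the group means. The 4 genes and the lists were chosen with earlier results of these data known. Alternatives covered the scaling, zeros, dim probes, an added constant, the replicate block, averaged consecutive samples and leaving out samples. Plots were drawn with matplotlib 3.10.9.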

Additional observations from a re-analysis of the deposited data

Results flagged for a closer look

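A check for 1 sample lying far from the other 5 was made in 44 sets of values, and it picked out 1, fewer than the 2.2 that chance would give with independent samples. This was OTP85 in recovered sample 6, at an intensity of 0.0844, below a range of 0.110 to 0.123 in the rest of its group. The value of AT5G15390 in recovered sample 4, 0.000444, was not picked out on the linear scale.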

How the results depend on the processing

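Differences of the 4 genes stayed below 0 under every alternative run. Relative to the deposited log2 differences, quantile normalization moved CRR21 to -0.95, AT1G31790 to -3.35 and AT3G18870 to -4.45, median centring moved them to -0.77, -3.10 and -3.70, and cyclic loess moved them to -0.86, -2.83 and -3.94, with AT5G15390 at -3.18. With 0.1 added they were -2.09, -3.37, -4.15 and, for AT5G15390, -3.23. Ranked among probes without a 0, rank differences were -23.7, -66.3, -71.4 and -62.9 points in the same order of genes. Leaving out 1 sample gave log2 differences of -2.79 to -2.58 for CRR21, -5.34 to -4.75 for AT1G31790, -5.84 to -5.06 for AT3G18870 and -5.87 to -4.21 for AT5G15390. Leaving out 1 consecutive pair, chosen after seeing the data, gave -2.78 to -2.56, -5.79 to -4.35, -5.91 to -5.18 and -6.31 to -4.004, and rank differences of -17.1 to -11.6, -62.4 to -44.8, -57.9 to -52.7 and -53.1 to -42.4 points. The unknown background limits every dim value.

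Over all probes 903 were called higher and 750 lower. As deposited these were 238 and 1819, and without the dimmer 50% of probes 525 and 401, or 926 in all, since fewer were tested. With any 1 sample dropped, calls numbered 1578 to 1637, of which 873 to 896 were higher and 700 to 745 lower. Against 7 calls among 9 organelle gene expression probes (3 higher, 4 lower), deposited values gave 0 higher and 9 lower, the filter on dim probes 3 calls (1 higher, 2 lower), averaged consecutive samples 2 calls (0 higher, 2 lower), and leaving out 1 sample 5 to 6 calls (2 to 3 higher, 3 to 4 lower). Against 2 calls among 3 NDH probes (1 higher, 1 lower), deposited values gave 0 higher and 3 lower, median centring 2 higher and 0 lower, and the filter on dim probes 1 call and 0 higher, while leaving out 1 sample kept 2 calls.

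As deposited, signs changed for OTP85 (-1.61), AT4G09620 (-0.65), AT5G55580 (-0.32), NdhN (-1.14) and AT2G25870 probe 2727 (-0.83). AT4G09620 also changed sign after cyclic loess (-0.35), NdhS after median centring (1.21) and Cpn60beta4 with zeros kept at the smallest positive value (0.63). Leaving out 1 sample gave -0.047 to 0.12 for AT4G09620 and -0.20 to 0.11 for Cpn60beta4, neither of which passed. The AT2G25870 probes each missed the threshold in 9 of 12 such cases. The cause was not tested.

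Equal sample numbers across the groups were not taken as pairing, and the deviations of such samples correlated at only -0.0256 to 0.102. However, 5 of 12 samples correlated best with their own number among the 6 of the other group, so pairing is not excluded. The number to expect without pairing was not computed. The likeness of consecutive control samples also makes these matches depend on each other. A fit with the replicate block called 878 higher and 746 lower, and among the 9 organelle probes 2 and 3; the calls lost were AT2G25870 probes 2727 (adjusted p = 0.0512) and 2853 (0.0733), and no call of the 3 NDH probes changed. The comparison of annotation families was not run.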
